A study of Mus musculus with 45 samples.

Results

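The genes described are the enzymes and carriers of the tricarboxylic acid (TCA) cycle, the itaconate branch and the entry of pyruvate. The list holds 34 members, and all 34 were found by symbol in the table of normalised values, among 29307 genes in the count table. Succinate dehydrogenase, which also belongs to the respiratory chain, is not among them. The RNA came from bone marrow-derived macrophages of C57BL/6N mice aged 6 to 10 weeks that carried Famin p.254I, Famin p.254V or Famin p.284R, with 5 mice of each genotype. FAMIN, encoded by Lacc1, is a purine enzyme. The 254I form is its fully active variant, 254V is a common risk variant of Crohn's disease, and 284R causes an inherited childhood arthritis. Each mouse was taken to have given 3 cultures, as libraries of a genotype that share a replicate number were treated as the same mouse. The labels do not state this, and the counts of mice given here and below rest on it. Cultures were grown for 6 days and then kept as M0, or polarised for 24 h to M1 or M2. M1 cultures received 50 ng/mL interferon-γ and 20 ng/mL lipopolysaccharide, and M2 cultures received 20 ng/mL interleukin-4. There were 45 libraries in 9 groups of 5. All groups carried an engineered Famin allele.

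The cycle joins acetyl-CoA to oxaloacetate as citrate and returns oxaloacetate through isocitrate, 2-oxoglutarate, succinyl-CoA, succinate, fumarate and malate. Pyruvate reaches it through a mitochondrial carrier and is then either oxidised by the pyruvate dehydrogenase complex or carboxylated to oxaloacetate. In inflammatory macrophages the cycle is known to be interrupted, and cis-aconitate is diverted to itaconate, an antibacterial and regulatory metabolite, by the decarboxylase that Acod1 encodes. Interleukin-4 macrophages are known to keep an intact cycle and to rely on oxidative metabolism. The measurements here are of messenger RNA alone.

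A library held between 17239009 and 43740283 counts (median 27553642), so that 1 CPM, a count scaled to the library's total, was about 27 reads in the median library. In these bulk samples, fewer cells of a type and less RNA per cell cannot be told apart. All 8 macrophage markers had a median above 1 CPM in every polarisation, and their summed level was 20000 to 33500 CPM in M0, 11300 to 15200 CPM in M1 and 9640 to 13900 CPM in M2. Lyz2 was the largest part of the sum, at medians of 17250, 5772 and 5192 CPM. Against M0, the median of Fcgr1 was higher in M1 (1203 against 347 CPM) and that of Itgam in M2 (363 against 299 CPM). The medians of all other markers in the list were lower than in M0. The 4 M2 markers (Arg1, Retnla, Chil3 and Mrc1) summed to 4430 to 14200 CPM in M2 and to at most 913 CPM in M0. The 4 M1 markers summed to 982 to 5420 CPM in M1 and to at most 1.67 CPM in M0 and M2, nearly all of it Cxcl9, while Il12b and Il6 had medians of 0.0831 and 0.074 CPM in M1. The 6 dendritic cell markers summed to 209 to 432 CPM in M1 against 0.745 to 2.44 CPM in M0, through Clec9a and Xcr1. Flt3, Zbtb46, Siglech and Ccr7 had medians of 0.163, 0.316, 0.466 and 0.17 CPM in M1. In M2 the list summed to 4.17 to 14.2 CPM, with Zbtb46 at a median of 7.34 CPM (0.578 CPM in M0). The 7 neutrophil markers summed to between 16.1 and 281 CPM over the libraries. The T and natural killer cell list summed to 20.9 to 46.8 CPM in M0 and 2.81 to 6.51 CPM in M2, with Cd4 as its only gene above 1 CPM and Cd3e at a median of 0 CPM. The stromal and endothelial list lay at 11.3 to 91.9 CPM, and the B cell, mast cell and erythroid lists stayed at or below 2.29 CPM. The part of these other lists in the results below was not tested.

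The sequences before the start sites of 3 members are shown because these genes had the widest called changes. Acod1 rose and Idh1 fell most in M1, and Suclg2 fell most in M2. Each run is the 250 bases before a RefSeq start site (GRCm38.p6), read 5′ to 3′ on the gene's strand, with capitals for letters that matched 1 of 8 short motifs on either strand.

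Acod1, chr14:103046762-103047011, plus strand: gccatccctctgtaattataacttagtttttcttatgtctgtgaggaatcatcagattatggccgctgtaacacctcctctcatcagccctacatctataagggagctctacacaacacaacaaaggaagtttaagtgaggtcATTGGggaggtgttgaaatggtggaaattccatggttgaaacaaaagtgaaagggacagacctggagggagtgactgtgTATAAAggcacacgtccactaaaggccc
Idh1, chr1:65186480-65186729, minus strand: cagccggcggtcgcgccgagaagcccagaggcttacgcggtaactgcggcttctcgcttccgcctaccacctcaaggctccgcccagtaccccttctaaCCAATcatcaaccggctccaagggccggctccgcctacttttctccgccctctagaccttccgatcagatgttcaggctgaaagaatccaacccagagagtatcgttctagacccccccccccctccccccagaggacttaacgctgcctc
Suclg2, chr6:95718847-95719096, minus strand: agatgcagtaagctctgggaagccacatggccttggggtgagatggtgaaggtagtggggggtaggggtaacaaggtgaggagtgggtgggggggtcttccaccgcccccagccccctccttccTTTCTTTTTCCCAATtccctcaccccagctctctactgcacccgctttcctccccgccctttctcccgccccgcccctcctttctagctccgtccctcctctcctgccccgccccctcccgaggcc

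In Acod1 the capitals mark a TATA box (TATAAA), whose first letter lies 28 bases before the start, and a CCAAT box in reverse. In Idh1 they mark a CCAAT box. In Suclg2 they mark the letters of an interferon-stimulated response element (GAAANNGAAA) in reverse, followed by a CCAAT box. A further RefSeq start of Idh1, inside the gene, held none of the motifs. TATAAA occurred before 12.4% of the 32851 mouse start sites in the table and before 2 of the 31 members that had an entry, Acod1 and Got2. The CCAAT letters occurred before 33.8% of all start sites and in 19 members. GAAANNGAAA occurred before 2.98% of start sites and in Suclg2 only. The gamma-activated site TTCNNNGAA (7.02% of start sites), the NF-κB letters GGGANTTTCC (0.356%), the NRF1 letters GCGCATGCGC (0.782%) and the estrogen-related receptor letters TCAAGGTCA (0.387%) matched in none of the members. The STAT6 letters TTCNNNNGAA (5.85%) matched in Fh1 and Idh3b. The upstream sequence of Acod1 was 44.4% G or C and held 2 CG pairs, whereas the other members' 40 sequences had a median of 61.4% G or C and of 18 CG pairs (all start sites, medians of 52.4% and 6). One of the sequences of Pdk1 and one of Me1 also held 2 CG pairs, whereas a further sequence of each held 19 and 23. That sequence of Pdk1 (38.4%) and the sequence of Dld (43.6%) were lower than Acod1 in G or C. Of all start sites, 23.2% were at or below Acod1 in G or C and 29% in CG pairs. Idh3a, Me2 and Pdp1 had no entry.

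The first question was how the cycle's genes differed between polarisations. Counts were compared with the quasi-likelihood test of edgeR over 12905 genes in all 45 libraries, and a gene was called at a Benjamini-Hochberg adjusted p below 0.05. In M1 against M0, 22 members rose, 6 fell and 6 did not pass the test. Of all genes tested, 37% were called higher and 40.3% lower. The median log2 fold change was 0.31 over the members and -0.03 over all genes, and the median size of the change was alike, at 0.38 in both. In M2 against M0, 22 members rose, 4 fell and 8 did not pass, where 36.8% of all genes were called higher and 39.6% lower. Medians were 0.23 for the members and -0.03 for all genes. In M1 against M2, 15 members were higher in M1 and 13 lower, where 39% and 40.1% of all genes were called in those directions. M1 and M2 were both set against the same M0 libraries.

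The calls of each comparison are set side by side, without a count, because M0 is shared. Those called higher in M1 and also in M2 were Cs, Idh3a, Idh3b, Ogdh, Dlst, Suclg1, Mdh1, Mdh2, all 5 genes of the pyruvate dehydrogenase complex, Mpc2, Glud1 and Got1. Got2 rose in M1 and fell in M2, whereas Idh2 and Slc25a1 fell in M1 and rose in M2. Suclg2 and Slc25a10 fell in both. Acod1, Me2, Pcx, Pdk3 and Slc25a11 rose in M1 alone by these calls, and Idh1 and Pdp1 fell there. Fh1, Idh3g, Pdk1 and Sucla2 passed the test only upwards in M2, Me1 only downwards in M2, and Mpc1 in neither. The 15 libraries of M1 lay wholly above those of M0 for 13 members and wholly below for 3, where 15.2% and 13.5% of all genes tested did so. Those of M2 lay above for 13 and below for 2, where 13.6% and 9.78% of all genes did.

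**Figure D1:**
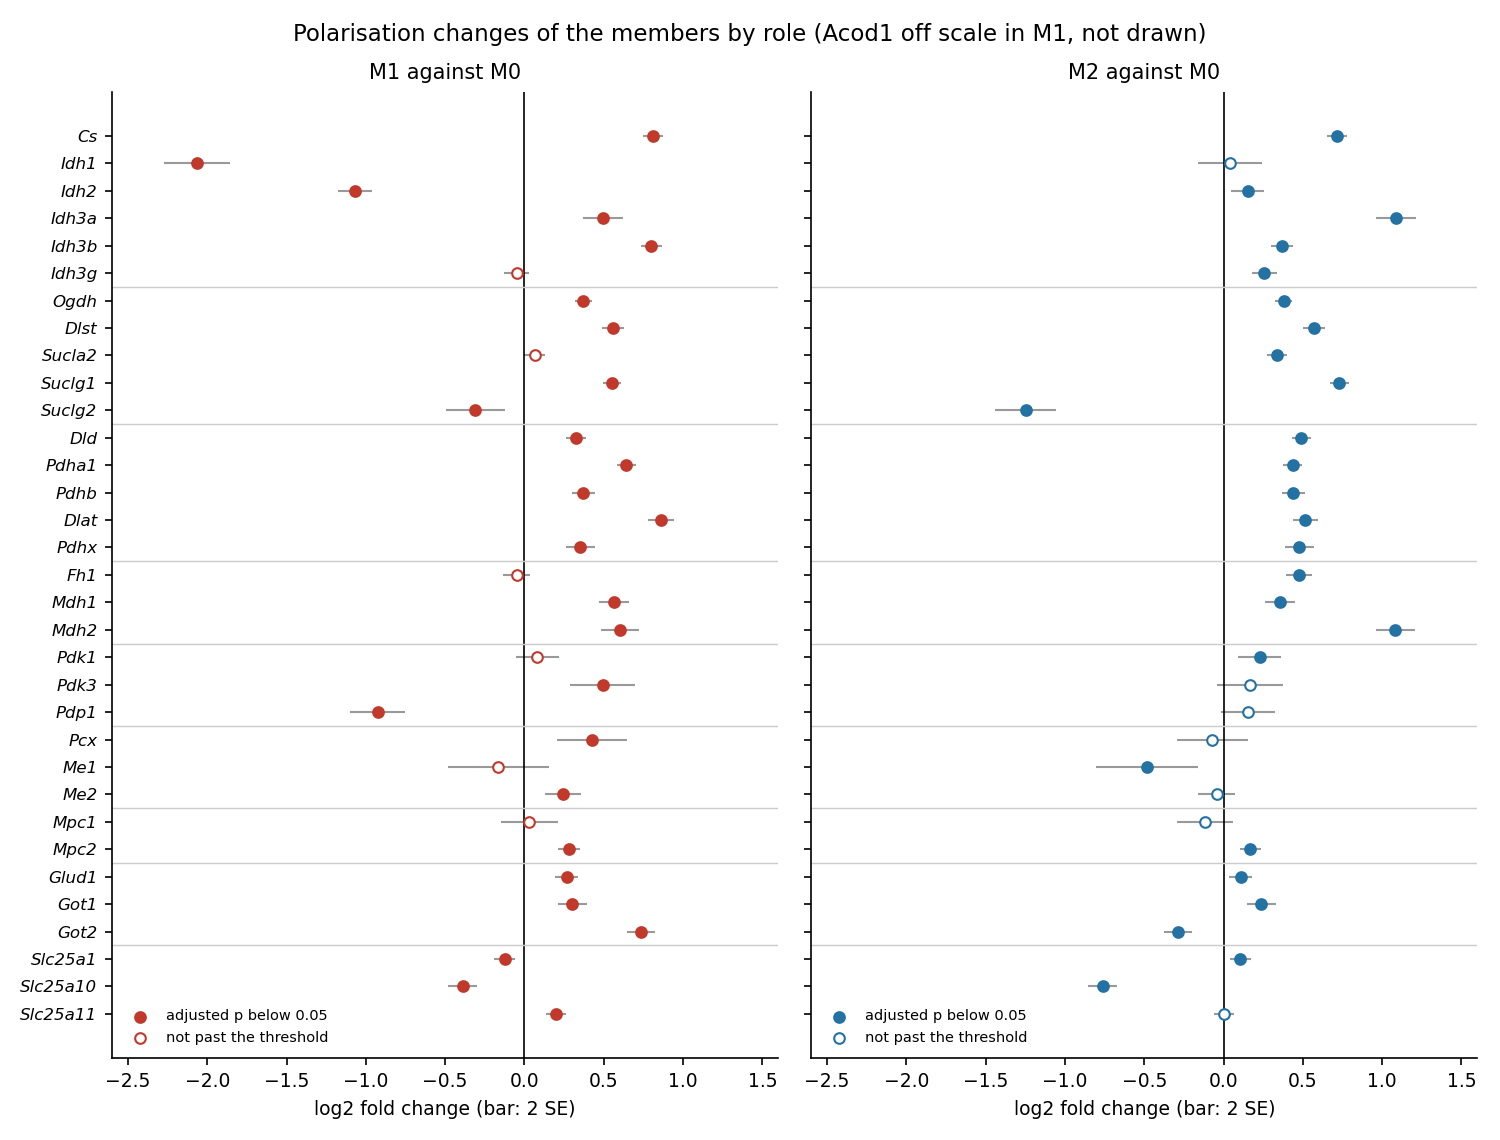
Log2 fold changes of 33 members in M1 against M0 (left) and M2 against M0 (right), one row per gene and grouped by role, with bars of 2 SE. Filled points passed an adjusted p of 0.05. Idh1 (-2.06) and Idh2 (-1.07) stand furthest to the left in M1, and Suclg2 (-1.25) in M2, while Idh3a (1.09) and Mdh2 (1.08) stand furthest to the right in M2. Acod1 is not drawn.

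Acod1 makes itaconate. The gene lies at chr14:103046977-103056573 on the plus strand (mm10, GENCODE). Over the 15 libraries of each polarisation its level was 1.43, 3.33 and 8.12 CPM (lowest, median, highest) in M0, 125.0, 318.6 and 1343 CPM in M1, and 1.17, 2.66 and 9.16 CPM in M2. Every M1 library lay far above every M0 and M2 library, and M0 and M2 overlapped. The log2 fold change was 6.79 (SE 0.30, adjusted p = 6.64e-23), or 111-fold, in M1 against M0. In M2 against M0 it was -0.19 (SE 0.29, adjusted p = 0.553). Per kilobase of exon, Acod1 was the 33rd of the 34 members in M0 (median 1.27 CPM per kb) and the first in M1 over the libraries of all genotypes (122 CPM per kb), there beside Mdh1 (120 CPM per kb). In the 5 M1 libraries of 254I alone it came after Mdh1, at 93.6 against 124 CPM per kb, in 254V the medians were alike (121 CPM per kb each), and in 284R they were 452 and 107 CPM per kb.

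Citrate synthase and the isocitrate dehydrogenases carry out early steps of the cycle. Cs, which makes citrate, rose from 172, 183 and 195 CPM in M0 (lowest, median, highest) to 306, 320 and 349 CPM in M1 and 276, 295 and 340 CPM in M2. Its log2 fold changes were 0.81 (SE 0.03) and 0.72 (SE 0.03). Neither M1 nor M2 overlapped M0.

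Idh1, the cytosolic NADP-dependent isocitrate dehydrogenase at chr1:65158616-65186500 on the minus strand, stood at 250, 448 and 609 CPM in M0 and at 89.0, 107 and 139 CPM in M1. In M2 it stood at 350, 474 and 553 CPM. All 15 M1 libraries were below all others, while M0 and M2 overlapped. The log2 fold change in M1 against M0 was -2.06 (SE 0.10, adjusted p = 6.96e-21), and in M2 it was 0.04 (adjusted p = 0.724). Idh2, the mitochondrial NADP-dependent enzyme, fell from a median of 84.2 CPM in M0 to 40.9 CPM in M1 (log2 fold change -1.07, SE 0.05, adjusted p = 2.16e-21). It was a little higher in M2, at 90.6 CPM (0.15, SE 0.05, adjusted p = 0.0079).

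The NAD-dependent enzyme of the cycle itself is built from the products of Idh3a, Idh3b and Idh3g, and these did not move by the same amount. Idh3a, for the catalytic subunit, stood at 26.1, 32.8 and 43.6 CPM in M0, at 41.6, 47.0 and 52.4 CPM in M1, and at 54.4, 69.6 and 80.6 CPM in M2. The M2 libraries were above all others, and those of M0 and M1 overlapped slightly. In M2 it rose by 1.09 on the log2 scale (SE 0.06, adjusted p = 8.19e-19) and in M1 by 0.49 (SE 0.06). Idh3b had the reverse order, with log2 fold changes of 0.80 (SE 0.03) in M1 and 0.37 (SE 0.03) in M2, and was higher in M1 than in M2 in 15 of 15 mice (0.43, adjusted p = 5.13e-15). Idh3g, for a regulatory subunit, had -0.05 (adjusted p = 0.253) in M1 and rose by 0.26 in M2.

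The 2-oxoglutarate dehydrogenase complex and succinyl-CoA ligase come next. Ogdh and Dlst encode the first and second enzymes of that complex. Ogdh rose by 0.37 on the log2 scale in M1 and by 0.38 in M2 (SE 0.03 each). Dlst, the member of this step with the largest rise in M1, stood at 112, 116 and 122 CPM in M0, at 154, 175 and 188 CPM in M1, and at 149, 168 and 199 CPM in M2. Its log2 fold changes were 0.56 (SE 0.03, adjusted p = 4.86e-18) and 0.57 (SE 0.03, adjusted p = 5.84e-18). M1 and M2 overlapped each other, but not M0. Suclg1, the subunit that every succinyl-CoA ligase contains, rose by 0.55 in M1 and 0.73 in M2.

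The ligase's other subunit decides whether it makes ATP (Sucla2) or GTP (Suclg2), and here the genes differed. Suclg2, at chr6:95473009-95718800 on the minus strand, stood at 10.8, 13.9 and 14.9 CPM in M0, at 7.01, 10.2 and 15.9 CPM in M1, and at 3.79, 5.56 and 7.50 CPM in M2. The M2 libraries were below all M0 libraries, and M1 was spread across the range of M0. The log2 fold change was -1.25 (SE 0.10, adjusted p = 5.32e-15) in M2 and -0.31 (SE 0.09, adjusted p = 0.00273) in M1. Sucla2 rose by 0.34 (SE 0.03) in M2. In M1 it had 0.06 (adjusted p = 0.0689). With the replicate number or the mouse as a block this call passed, at adjusted p = 0.0393 and 0.0418.

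Fumarase and the malate dehydrogenases follow. Mdh2, the mitochondrial enzyme that closes the cycle, stood at 118, 141 and 159 CPM in M0, at 179, 219 and 234 CPM in M1, and at 243, 276 and 381 CPM in M2. The 3 ranges did not overlap. Its log2 fold changes were 0.60 (SE 0.06, adjusted p = 9.80e-12) in M1 and 1.08 (SE 0.06, adjusted p = 4.25e-19) in M2. Mdh1, the cytosolic enzyme of the malate-aspartate shuttle, rose by 0.57 in M1 and 0.36 in M2 (SE 0.05 each). Fh1, fumarase, rose in M2 by 0.48 (SE 0.04) and had -0.05 (adjusted p = 0.307) in M1.

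**Figure D2:**
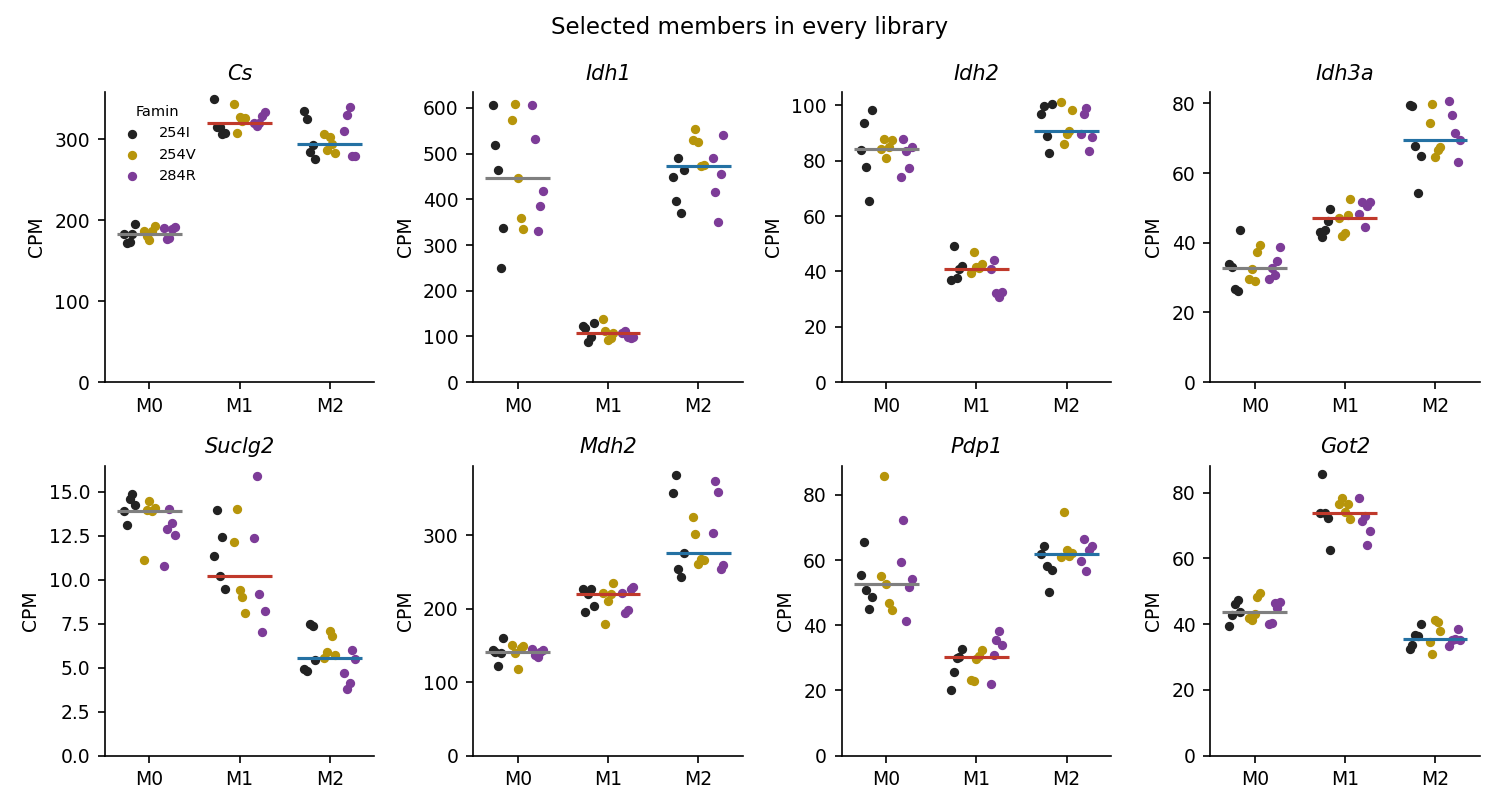
Level in CPM (linear axis from 0) of 8 members in each of the 45 libraries by polarisation, coloured by Famin genotype, with a line at the median of 15 libraries. Idh1 and Idh2 are lowest in M1 (medians of 107 and 40.9 CPM), Suclg2 is lowest in M2 (5.56 CPM), and the genotypes are mixed within each polarisation.

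The next genes bring pyruvate into the cycle. The mitochondrial pyruvate carrier is a pair of proteins. Mpc2 stood at 24, 25.2 and 28.8 CPM in M0, at 27.3, 31.2 and 35.5 CPM in M1, and at 25.4, 29.4 and 32.2 CPM in M2, and the 3 ranges overlapped. Its log2 fold changes were 0.28 (SE 0.03, adjusted p = 1.32e-09) and 0.17 (SE 0.03, adjusted p = 2.67e-05). Mpc1, at medians of 5.30, 5.59 and 5.10 CPM, had 0.03 in M1 and -0.12 in M2 (adjusted p = 0.754 and 0.236). GENCODE lists a pseudogene named after Mpc1 and one named after Got2, so the counts of these 2 genes are less certain. Pseudogenes under other names were not searched for, so the remaining members may have some. In addition, 11 members (among them Idh3b, Mdh1, Got2 and Slc25a10) overlap an annotated gene on the opposite strand and 5 overlap one on their own strand, and whether counting used the strand is not given in the sources used here.

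All 5 genes of the pyruvate dehydrogenase complex, which turns pyruvate into acetyl-CoA, rose in both polarisations. Of all genes tested, 37% were called higher in M1 and 36.8% in M2. Both comparisons share the M0 libraries, and the share of genes called higher in both was not computed. Log2 fold changes ran from 0.32 to 0.86 in M1 and from 0.44 to 0.51 in M2. Dlat, the acetyltransferase core, stood at 38.6, 42.3 and 46.0 CPM in M0, at 62.1, 78.6 and 83.2 CPM in M1, and at 52.8, 60.3 and 66.1 CPM in M2. Both polarised sets were above M0 and overlapped each other. Dlat rose by 0.86 (SE 0.04, adjusted p = 1.80e-22) in M1 and by 0.51 (SE 0.04, adjusted p = 5.86e-15) in M2. Pdha1 and Pdhb, the first enzyme's subunits, rose by 0.64 and 0.37 in M1 and by 0.44 each in M2. Pdhx, the protein that tethers the third enzyme, rose by 0.35 and 0.48. Dld, the third enzyme, which 2-oxoglutarate dehydrogenase also uses, rose by 0.32 and 0.49.

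The complex is switched off by kinases and on by phosphatases. Pdp1, a phosphatase, stood at 41.4, 52.7 and 85.7 CPM in M0, at 20.1, 30.1 and 38.1 CPM in M1, and at 50.3, 61.9 and 74.7 CPM in M2. All M1 libraries were below all others. The log2 fold change was -0.93 (SE 0.09, adjusted p = 1.71e-12) in M1 and 0.16 (adjusted p = 0.0963) in M2. Pdk1, a kinase, stood at 73.3, 95.1 and 121 CPM in M0, at 92.5, 101 and 111 CPM in M1, and at 92.6, 109 and 142 CPM in M2, with overlap throughout. It had 0.08 (adjusted p = 0.276) in M1 and rose by 0.23 (SE 0.07, adjusted p = 0.00293) in M2. Pdk3, a further kinase, rose by 0.49 (SE 0.10) in M1 and had 0.17 (adjusted p = 0.137) in M2, where the call passed with either block (adjusted p = 0.0105 by number and 0.0101 by mouse). Pdk2, a kinase gene outside the list, was called lower in M1, with medians of 23.95 CPM in M0 and 15.28 CPM in M1. It was lower in 15 of 15 mice. Pdp2, a phosphatase gene outside the list, was also called lower in M1, in 12 of 15 mice.

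Pyruvate carboxylase and the malic enzymes link pyruvate to oxaloacetate and malate. Pcx, which makes oxaloacetate from pyruvate, stood at 1.74, 2.16 and 3.70 CPM in M0, at 2.46, 3.16 and 4.86 CPM in M1, and at 1.45, 2.19 and 3.24 CPM in M2. It was the lowest member per kilobase in all 3 polarisations. Pcx rose by 0.43 (SE 0.11, adjusted p = 6.97e-04) in M1 and had -0.07 (adjusted p = 0.574) in M2. Me1, the cytosolic malic enzyme that makes NADPH, stood at 3.70, 5.82 and 10.7 CPM in M0, at 2.55, 5.50 and 9.84 CPM in M1, and at 2.92, 4.56 and 6.51 CPM in M2. The ranges overlapped, and Me1 fell in M2 (log2 fold change -0.48, SE 0.16, adjusted p = 0.00702). Me2, its mitochondrial counterpart, had medians of 40.0, 46.8 and 38.0 CPM in M0, M1 and M2. It rose by 0.24 (SE 0.06) in M1 and had -0.04 (adjusted p = 0.50) in M2.

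Glutamate dehydrogenase and the aspartate aminotransferases join the cycle to amino acids. Got2, the mitochondrial aminotransferase, stood at 39.3, 43.6 and 49.5 CPM in M0, at 62.6, 73.8 and 85.5 CPM in M1, and at 30.8, 35.6 and 41.2 CPM in M2. M1 was above both others, and M2 overlapped M0 at its upper end. Got2 rose by 0.74 (SE 0.04, adjusted p = 7.67e-19) in M1 and fell by 0.29 on the log2 scale (SE 0.04, adjusted p = 1.96e-07) in M2, in 15 of 15 mice each. Got1, the cytosolic form, rose by 0.30 and 0.24, and Glud1 by 0.27 and 0.11.

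Among the carriers, Slc25a10, which exchanges dicarboxylates such as malate and succinate for phosphate, stood at 58.4, 66.2 and 74.2 CPM in M0, at 42.3, 50.9 and 59.5 CPM in M1, and at 34.5, 38.5 and 44.1 CPM in M2. The M2 libraries were below all of M0, and M1 lay between and overlapped both. Log2 fold changes were -0.39 (SE 0.05, adjusted p = 4.97e-10) and -0.76 (SE 0.05, adjusted p = 3.33e-18). Slc25a1, the citrate carrier, fell by 0.13 on the log2 scale in M1 and rose by 0.11 in M2 (SE 0.03 each). Slc25a11, the 2-oxoglutarate carrier, rose by 0.20 (SE 0.03) in M1 and had 0.00 (adjusted p = 0.976) in M2.

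Genes that share a reaction were also compared with each other, as the ratio of their CPM per kilobase of exon in each library. Idh1 over Idh2 was 3.19, 5.17 and 7.65 in M0 (lowest, median, highest), 2.07, 2.39 and 3.28 in M1, and 3.30, 4.88 and 6.00 in M2. Both genes fell in M1, Idh1 by more, and M1 barely met M0. Sucla2 over Suclg2 was 4.56, 4.98 and 6.17 in M0 but 4.69, 6.96 and 10.7 in M1. In M2 it was 10.6, 15.8 and 23.7, and the M2 range lay wholly above that of M0. Got1 over Got2 had medians of 3.45 (M0), 2.54 (M1) and 4.79 (M2). Mdh1 over Mdh2 had medians of 1.91, 2.01 and 1.38, and its M2 range of 0.812 to 1.52 lay below that of M1 and M0. Me1 stood below Me2 in all libraries, with median ratios of 0.324, 0.221 and 0.226. Pdk1 over Pdk3 had medians of 1.84, 1.46 and 1.79, and Mpc1 over Mpc2 medians of 0.743, 0.63 and 0.632, with overlapping ranges. The exon length is that of all annotated transcripts joined, so a ratio depends on the annotation. This length cancels in the fold difference of a ratio between polarisations, but the counts still depend on the annotation used for counting.

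**Figure D3:**
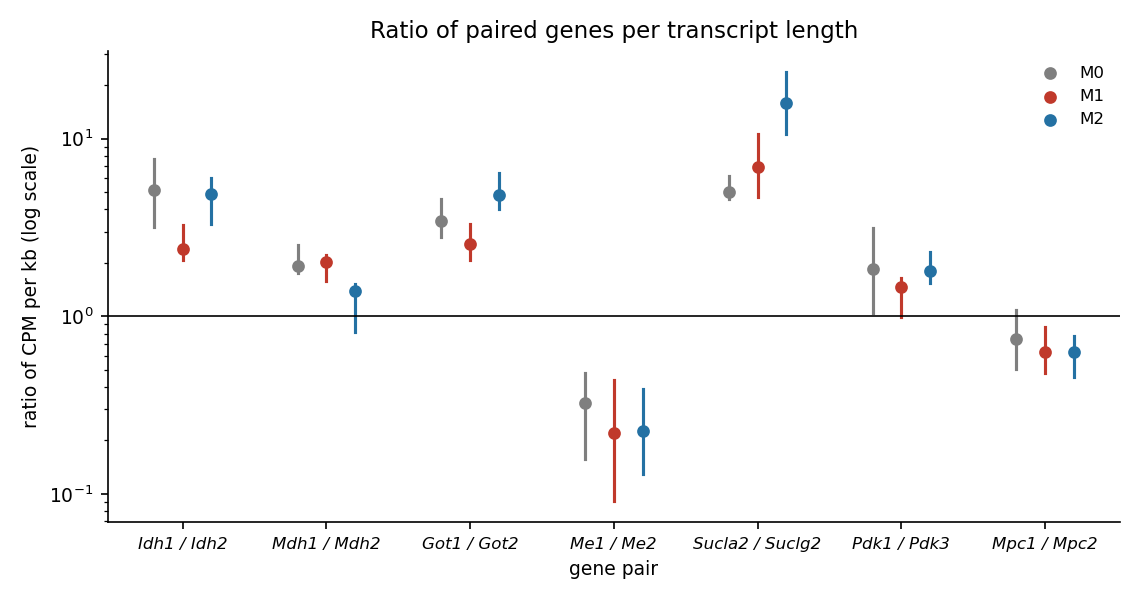
Ratio of CPM per kilobase of exon (log axis) between the genes of 7 pairs in M0, M1 and M2. Points are medians and bars the range of 15 libraries. Sucla2 / Suclg2 is highest in M2 (median 15.8), Idh1 / Idh2 is lowest in M1 (2.39), and Me1 / Me2 stays below 1.

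A further 31 genes of neighbouring reactions were examined, of which 25 passed the filter on low counts. Pck1 and Slc25a21 had a median of 0 CPM in every polarisation, as had Me3, Sucnr1 and Oxgr1, and Gls2 also did not pass. In M1, 9 rose and 11 fell, where 37% and 40.3% of all genes tested were called in those directions. In M2, 13 rose and 4 fell, where 36.8% and 39.6% of all genes were. The widest called changes in M1 were in Glul (glutamine synthetase), Pdk4, Slc25a12 and Slc25a22. Glul fell from a median of 544 CPM to 74.2 CPM (log2 fold change -2.71, SE 0.10), and to 181 CPM in M2 (-1.52, SE 0.09). Pdk4 was at or below 0.903 CPM in all libraries, so its log2 fold changes of -2.24 in M1 and -2.67 in M2 rest on few reads. Slc25a12, an aspartate-glutamate carrier, rose from 49.8 CPM to 168 CPM in M1 (1.78, SE 0.03), and Slc25a22, a glutamate carrier, from 27.2 CPM to 78.8 CPM (1.44, SE 0.08). Slc25a13, the other aspartate-glutamate carrier, fell by 0.54 on the log2 scale in M1 and rose by 1.10 in M2. In M2 the widest, beside Glul and Pdk4, were Adhfe1 (1.47), at a median of 2.14 CPM, and Pck2 (-1.27), mitochondrial phosphoenolpyruvate carboxykinase, which fell from 48.9 CPM to 21.8 CPM.

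The second question was whether the Famin genotype altered these genes. Lacc1, which carries the variants, was measured first. In M1 it stood at 486 to 523 CPM in 254I and at 533 to 597 CPM in 254V. In 284R it stood at 396, 263, 218, 584 and 553 CPM in mice 1 to 5, so 3 of 5 libraries lay below the other genotypes. A substitution is not read from gene counts, so these values do not check the genotype labels.

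In the M1 comparison of 284R with 254I, 1 of the 34 members was called, Acod1, where 0.263% of all genes were called (34 genes). None was called in M0 or M2, where 0% and 0.00775% of all genes were, or in the average over polarisations (0.0155%). Between 254V and 254I, no member was called in M0, M1 or M2 (0% of all genes each) or in the average (0.0155%). Between 284R and 254V, none was called in M1 (0.0775%) or in the average (0%). No member's change from M0 to M1 or to M2 was called as different in 284R or in 254V (0% of all genes in each of the 4 tests). By edgeR at an unadjusted p below 0.05, 4 members passed for 284R against 254I in M1 (6.7% of all genes), 2 in the average (4.38%) and 0 in M0 (1.08%) and in M2 (1.15%). The number was 0 for 254V against 254I in M0 (1.79%), M1 (0.93%), M2 (2.55%) and the average (2.5%). It was 4 for 284R against 254V in M1 (6.19%) and 3 in the average (4.7%). The change from M0 to M1 in 284R gave 2 (2.76%), and the other 3 tests of a change gave 0 (0.542% to 1.29%).

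The 254I libraries of M1 held 194.7, 125.0, 336.3, 245.6 and 360.9 CPM of Acod1 in mice 1 to 5. The 254V libraries held 206.0, 127.1, 322.8, 318.6 and 383.4 CPM. The 284R libraries held 254.9, 234.0, 1186, 1343 and 1325 CPM. Mice 3, 4 and 5 of 284R were above all 10 libraries of the other genotypes, whereas mice 1 and 2 lay within their range. Mice 1 and 2 were also the lowest of 254I and of 254V. Against the 254I mouse of the same number, 284R was 1.31, 1.87, 3.53, 5.47 and 3.67 times as high, and 254V was 0.96 to 1.30 times as high.

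The log2 fold change of Acod1 for 284R against 254I in M1 was 1.78 (SE 0.39, adjusted p = 0.0283), or 3.44-fold, over means of 869 ± 573 and 252 ± 98 CPM (SD, n = 5). Acod1 is also among the genes that the study picked from these same libraries, so the call is not independent evidence. It was lost with limma-voom (1.48, adjusted p = 0.079), without the filter on low counts (adjusted p = 0.0686) and with only the 10 libraries compared (adjusted p = 0.809). Against 254V in M1 the log2 fold change was 1.68 (SE 0.39, adjusted p = 0.080). This call passed with the replicate number as a block (1.57, adjusted p = 0.0438). For 284R against 254I in M1 the block gave 1.68 (adjusted p = 0.0175). Against 254I in M0 and M2 the log2 fold changes were 0.50 (SE 0.48) and 0.77 (SE 0.50), both with adjusted p = 1. For 254V against 254I in M1 it was 0.11, with a 95% interval of -0.67 to 0.88. The excess of the M0 to M1 change in 284R over that in 254I was 1.29 (SE 0.61, adjusted p = 1.00), so a difference between polarisations was not shown.

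Leaving out a mouse changed this call often. It was lost without mouse 3, 4 or 5 of 284R (adjusted p = 0.126, 0.199 and 0.197), without mouse 1, 2, 3 or 4 of 254I (0.128, 0.154, 0.0509 and 0.0964), and without mouse 1, 3 or 4 of 254V (0.0516, 0.0510 and 0.0503), whose libraries enter this comparison through the shared fit. Without mouse 1 or 2 of 284R it was stronger (adjusted p = 0.00245 and 0.00265). The average over polarisations, not called with all mice, passed without mouse 1 of 284R (adjusted p = 0.0340 against 254I and 0.0382 against 254V). That fit takes the 3 cultures of a mouse as separate. With counts summed per mouse, or with the mouse as a random block in limma-voom, the averages over all mice had an adjusted p of at least 0.9997. In M1 the log2 fold change of 284R against 254I stayed between 1.48 and 2.03 in all settings tried.

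Exact two-sided permutation tests of mean log2(CPM + 1) over mice gave p = 0.0873 in M1 (284R against 254I, difference 1.48, 3 of 5 mice above all 254I mice) and p = 0.0238 for the mean of the 3 polarisations (difference 0.76, 4 of 5). Against 254V the exact permutation p was 0.103 in M1 and 0.0317 for the mean. These tests compare 5 mice with 5 and do not use the shared replicate numbers. Over the 12 tests run none passed after Benjamini-Hochberg adjustment, the smallest value being 0.19, and 0.00794 is the smallest p that 5 against 5 can give.

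**Figure D4:**
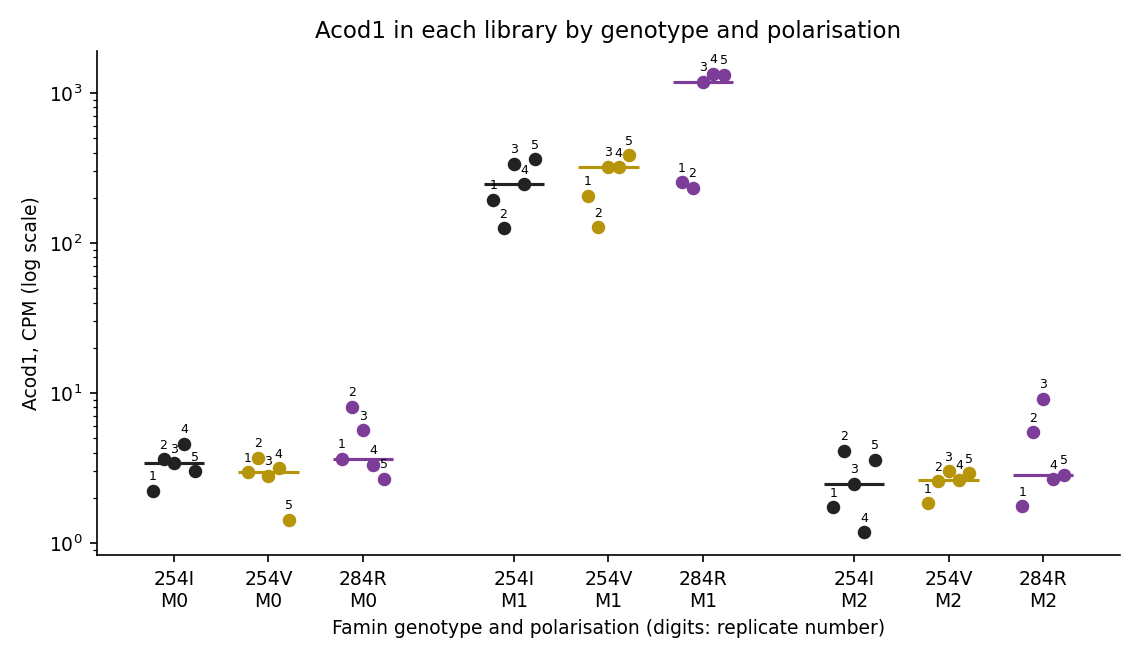
Acod1 in CPM (log axis) in each library, by Famin genotype and polarisation, with digits for the replicate number and a line at the median of 5. In M1, replicates 3, 4 and 5 of 284R (1186, 1343 and 1325 CPM) stand above all other libraries, and replicates 1 and 2 (254.9 and 234.0 CPM) lie among those of 254I and 254V.

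Of the M1 markers, Cxcl9 and Nos2 were also looked at by mouse, and Il12b and Il6 were not. Lacc1, also higher in M1 than in M0 (medians of 501 and 169 CPM in 254I), did not follow the order of Acod1. In M1 of 284R it was lowest in mouse 3, at 218 CPM. Cxcl9 stood at 3350, 1780, 5340, 4720 and 5130 CPM in mice 1 to 5 of 284R, against 979 to 3480 CPM in 254I and 1370 to 3660 CPM in 254V. Nos2, inducible nitric oxide synthase, stood at 25.6, 8.60, 81.5, 149 and 131 CPM, against 3.01 to 26 CPM and 4.92 to 20.9 CPM. Mice 3, 4 and 5 of 284R were thus the highest for Cxcl9 and Nos2 as well. The 4 M1 markers summed to 1790 to 5420 CPM in 284R and to 982 to 3510 CPM in 254I. The dendritic cell list, at 209 to 432 CPM in 284R and 255 to 411 CPM in 254I, overlapped, as did the neutrophil list at 40.9 to 119 and 41.2 to 135 CPM. Their part in the Acod1 difference was not tested.

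The other 33 members differed little between genotypes. For 284R against 254I in M1, their log2 fold changes ran from -0.20 to 0.39 with a median of 0.01, and 29 of 33 lay within 0.2 of 0. The widest was that of Me1 (0.39), a gene at a few CPM. By edgeR, the smallest unadjusted p after Acod1 belonged to Mpc2 (log2 fold change -0.19, SE 0.06, adjusted p = 0.283), Mdh1 (-0.19, SE 0.08, adjusted p = 0.633) and Idh2 (-0.20, SE 0.09, adjusted p = 0.687). In the average over polarisations, Suclg2 (-0.20, SE 0.09) and Mdh1 (-0.09, SE 0.05) followed Acod1, each with adjusted p = 1. For 254V against 254I, the average gave 0.14 (SE 0.09) for Mpc1, 0.05 (SE 0.04) for Idh3g and 0.06 (SE 0.05) for Got1, with adjusted p = 1.00, and all 33 members were within 0.2 of 0. For 284R against 254V, the average gave 0.26 (SE 0.11) for Pcx and -0.11 (SE 0.05) for Idh2, each with adjusted p = 0.948, behind Acod1 (1.07, SE 0.27, adjusted p = 0.751). These differences did not pass the test, which does not show that the genotypes are alike.

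**Figure D5:**
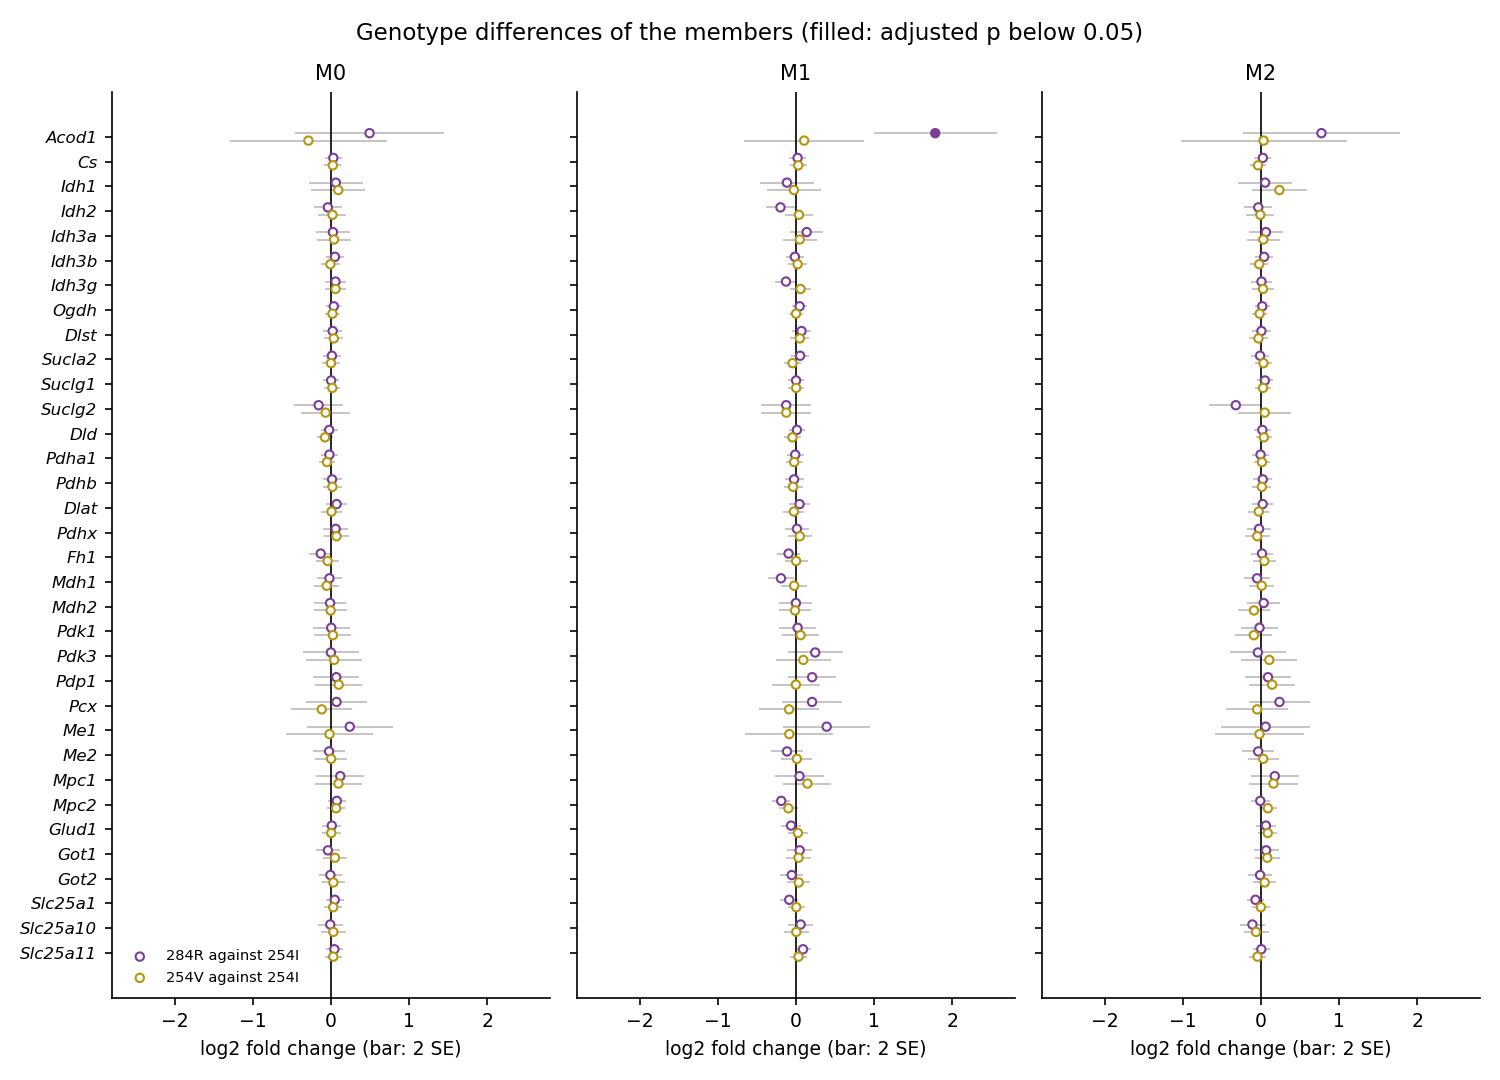
Log2 fold changes of the 34 members for 284R against 254I and 254V against 254I within M0, M1 and M2, with bars of 2 SE. Only Acod1 in M1 (1.78) is filled, which marks an adjusted p below 0.05, and the other members cluster near 0.

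The polarisation changes kept their sign across genotypes for nearly all members. By the mean of log2(CPM + 1), 33 of 34 members changed in the same direction in all 3 genotypes in M1 and 32 of 34 in M2. The share of all genes that did so was not computed, so these counts do not set the members apart. The span between the highest and lowest genotype had a median of 0.0945 over the 33 members other than Acod1 in M1 and of 0.0799 in M2. It was widest for Mpc2 in M1 (0.255) and for Suclg2 in M2 (0.238). For Acod1 the M1 change on that scale was 5.78 in 254I, 6.09 in 254V and 6.95 in 284R, a span of 1.16.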

How the data were processed

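Bone marrow-derived macrophages were sequenced as stranded mRNA libraries (single-end reads of 50 bases). Group and replicate number came from the sample labels, and libraries of a genotype that share a number were taken as the cultures of 1 mouse. The authors deposited a table of raw counts, reads per Ensembl gene, for 29307 genes, and a table of CPM for 11900 of these, whose values gave whole reads for 100% of entries (tolerance 0.01 reads). The methods and labels name Trim Galore, HISAT2, mm10, whereas the series text names Cutadapt and STAR, and they also differ in the sequencer. The counting tool, its annotation and its use of strand are not given in the sources used here. Deposited columns of comparisons were not used. Symbols and coordinates came from GENCODE (GRCm38, 29081 identifiers matched) and upstream sequences from RefSeq (GRCm38.p6, 31 of 34 members). The motifs were chosen with the data known.

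The count table was tested with edgeR 4.0.16 (R 4.3.3). filterByExpr over the 9 groups kept 12905 genes (all 34 members and 25 of 31 neighbouring genes), which were scaled by TMM (factors 0.939 to 1.10) and fitted with glmQLFit (robust) to 9 group means without a block. Polarisations were compared by the mean of the differences in 3 genotypes, and genotypes within a polarisation or as the mean of those differences. P-values were adjusted by Benjamini-Hochberg over all genes, and levels are TMM-scaled CPM. The script was tested on simulated counts. limma 3.58.1 and DESeq2 1.42.0 served as alternatives. SciPy gave the exact permutation tests for Acod1.

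The members, the neighbouring genes and the marker lists were chosen with earlier results of these data known. Every member is named with its polarisation changes. Levels in full are given for Acod1 and, per role, for the called member with the largest change in M1 and in M2, with Cs, Idh2 and the other subunits of its step added after their values were seen. For genotype, members called in any comparison are described, then the 3 smallest p in each averaged comparison. Of the neighbouring genes, the 4 with the largest called change in M1 and in M2 are named, and Slc25a13, Pdk2 and Pdp2 were added after their values were seen. One neighbouring gene is not reported here.

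The labels do not say what a shared replicate number means. Deviations from the group mean over 8404 genes correlated above 0.1 in 15 of 15 same-numbered pairs across genotypes in M0 (median 0.697) and in M1 (median 0.517). In M2 13 of 15 did so (median 0.445, lowest -0.441). Same-numbered libraries were therefore treated as paired for the block, which is 1 effect of the number over all 45 libraries, M2 included. Pairs with different numbers were not compared. Cultures taken as 1 mouse correlated above 0.1 in 12, 15 and 10 of 15 pairs for M0 with M1, M0 with M2 and M1 with M2. The median correlations of these pairs were 0.286, 0.478 and 0.126. They do not settle whether a shared number within a genotype marks 1 mouse. Counts of mice, and the fits by mouse, rest on that reading.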

Additional observations from a re-analysis of the deposited data

Results flagged for a closer look

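In each of the 306 combinations of a member and a group of 5 libraries, the highest and the lowest library were compared with the other 4 by Dixon's criterion at the 95% level. The criterion was met in 20 combinations, for 16 members, where chance gives about 1 in 20. None of them concerns Acod1. The 10 libraries that stood above the rest of their group were Cs in 254I M1 mouse 1 (349 CPM, others 306 to 315 CPM), Dld in 254V M1 mouse 1 (125 CPM, others 109 to 113 CPM), Fh1 in 254V M0 mouse 1 (63.6 CPM, others 49.4 to 53.5 CPM), Got1 in 284R M0 mouse 1 (88.8 CPM, others 75.9 to 77.5 CPM) and Mpc1 in 284R M1 mouse 5 (6.75 CPM, others 5.07 to 5.34 CPM). The same held for Pcx in 254I M0 mouse 5 (3.7 CPM, others 2.05 to 2.36 CPM), Pdha1 in 284R M1 mouse 2 (171 CPM, others 150 to 152 CPM), Pdp1 in 254V M0 mouse 2 (85.7 CPM, others 44.6 to 55.1 CPM), Pdp1 in 254V M2 mouse 2 (74.7 CPM, others 60.9 to 63 CPM) and Sucla2 in 254V M0 mouse 2 (65.5 CPM, others 57.5 to 59.6 CPM). The 10 that stood below were Dlst in 284R M1 mouse 2 (158 CPM, others 178 to 183 CPM), Fh1 in 284R M1 mouse 4 (43.4 CPM, others 50.3 to 51.8 CPM), Idh3b in 284R M0 mouse 2 (115 CPM, others 120 to 121 CPM), Idh3b in 284R M1 mouse 2 (173 CPM, others 204 to 216 CPM) and Idh3b in 284R M2 mouse 2 (145 CPM, others 155 to 159 CPM). The same held for Idh3g in 254I M2 mouse 4 (95.9 CPM, others 111 to 114 CPM), Mdh1 in 254V M2 mouse 2 (231 CPM, others 269 to 279 CPM), Me1 in 254V M1 mouse 2 (2.55 CPM, others 5.1 to 6.07 CPM), Ogdh in 254I M0 mouse 4 (156 CPM, others 166 to 168 CPM) and Suclg2 in 254V M0 mouse 1 (11.1 CPM, others 13.9 to 14.5 CPM). Idh3b was low in mouse 2 of 284R in all 3 polarisations, and Pdp1 was high in mouse 2 of 254V in M0 and M2.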

How the results depend on the processing

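Polarisation calls moved little. The number of members called was 28 in M1 against M0 (28 to 29 with each mouse left out), 26 in M2 against M0 (26 to 27) and 28 in M1 against M2 (26 to 29), and it stayed between 26 and 29 with DESeq2, limma-voom, other scaling or filters, and only the libraries compared. No called member changed direction. Of the 12905 genes tested, 9982, 9860 and 10211 were called in these 3 comparisons with all mice. The steadiness of the calls therefore does not set the members apart. Calls changed for Sucla2 in M1 against M0 and for Pdk3 and Pdp1 in M2 against M0. In M1 against M2 they changed for Me1, Pdhb, Pdhx and Pdk1. The Pdk1 call (log2 fold change -0.15, adjusted p = 0.0491) lay near the threshold. It was lost with DESeq2 (adjusted p = 0.0501), limma-voom (0.0664), no low-count filter (0.112), the replicate number as a block (0.0598) and many mice left out singly. Pdp1 in M2 against M0 was not called with all mice by edgeR, and passed with limma-voom (adjusted p = 0.0495). With the replicate block, by number or by mouse, 29, 27 and 29 members were called in the 3 comparisons. Of the 12905 genes, the block by number called 10397, 10318 and 10559, and the block by mouse 10352, 10286 and 10530.

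Genotype calls rest on Acod1 alone. For 284R against 254I in M1, 1 member was called, and 0 with limma-voom, without the low-count filter, with only the libraries compared, and with only those libraries and the replicate block together (adjusted p = 0.199, a setting chosen after seeing the data). With each mouse left out it ranged from 0 to 1, as it did for 284R against 254V in M1 and for both averages of 284R. For 284R against 254V in M1, where 0 were called, DESeq2 called 1 (adjusted p = 0.0490) and the replicate block 1. The replicate block changed no other genotype call, and neither DESeq2 nor limma-voom called a member in any other genotype comparison. The cause of these changes was not tested. The exact permutation difference of Acod1 in M1 (1.48) ranged from 1.23 to 1.86 with a mouse left out, with an adjusted p of at least 0.191. Over all genes, the 34 calls for 284R against 254I in M1 became 64 with the replicate block and 0 to 109 over all settings, and the 10 calls for 284R against 254V in M1 became 36 with the block and 0 to 65 over all settings. The averages gave 2 calls (0 to 19 over the settings) for 284R against 254I, 2 (0 to 5) for 254V against 254I and 0 (0 to 7) for 284R against 254V. The 254V comparisons within M0, M1 and M2 gave at most 3 calls in any setting, and 284R against 254I gave at most 1 in M0 and 2 in M2. Reads recovered from the CPM table, a setting also chosen after seeing the data, gave the same number of called members in all comparisons. Genes at a few CPM, such as Pcx, Me1 and Mpc1, had wide intervals, so small genotype differences in them were not detectable at this depth and with 5 mice a group.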
